A study of Homo sapiens with 14 samples.

Results

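The binding of NF-κB subunits was examined at the genes of the 3 D-type cyclins, of their kinase partner CDK6 and of the CDK inhibitor p21, in L1236 cells. Members were the ChIP-seq regions whose closest gene or closest transcription start site (TSS) carried the Ensembl identifier of *CCND1* (ENSG00000110092), *CCND2* (ENSG00000118971), *CCND3* (ENSG00000112576), *CDK6* (ENSG00000105810) or *CDKN1A* (ENSG00000124762). This rule took 24 of the 14865 regions that carried a call for at least 1 subunit. L1236 is an established cell line from Hodgkin lymphoma (HL), in which NF-κB is active without a stimulus, and no treatment or other cell type was compared here. Chromatin was precipitated with antibodies to p50, p52, RelA or RelB, with 2 replicates for each, and 6 libraries of input DNA gave the background. The p50, RelA and RelB replicates each shared 1 antibody, whereas 1 p52 replicate was made with a mouse monoclonal and the other with a rabbit polyclonal antibody. The study's methods call the replicates biological, and the labels do not say whether they came from separate cultures.

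D-type cyclins bind CDK4 or CDK6 in the G1 phase of the cell cycle, and the active kinases phosphorylate the retinoblastoma protein and so release E2F factors that drive entry into S phase. p21, the product of *CDKN1A*, inhibits cyclin-dependent kinases and is a classical target of p53. In B cells cyclin D2 and cyclin D3 are the D-type cyclins usually expressed, and NF-κB is among the factors known to act on the genes of D-type cyclins. RelA with p50 is the prototypic dimer of the canonical pathway and RelB with p52 that of the non-canonical pathway.

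The calls, fold enrichments and read counts were deposited for the merged replicates, so that in these values each subunit was represented by 1 merged library, and differences in them between subunits or regions were not tested. The sole values per replicate, the signal values, were used to order regions, without a test. Over all regions the merged libraries counted 1654137 reads with p50 and 1810792 with p52, but 470788 with RelB and 315151 with RelA, and a RelB or RelA count in a region was correspondingly less precise. Intervals given with read counts and shares are 95% intervals and cover counting error only. Regions at 1 gene share their libraries and are not replicates of each other.

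The members were spread unevenly over the 5 genes. *CDK6* had 12 regions, *CCND2* had 9, *CDKN1A* had 2, *CCND1* had 1 and *CCND3* had none. Of the 8450 genes with at least 1 region, 51 (0.604%) had 12 or more, 141 (1.67%) had 9 or more and 3783 (44.8%) had 2 or more. A count of this kind depends on the length of a gene and on the distance to its neighbours, since the authors assigned each region to the closest gene or TSS within 1 Mb. *CDK6* spans 229.0 kb on hg18, and 7 of its 12 regions lay in the gene body away from the TSS. By the closest TSS alone only 5 regions belonged to *CDK6*.

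p50 was called in 19 of the 24 regions (79.2%, Wilson interval 59.5% to 90.8%), against 73.8% of all regions. p52 was also called in 19 (79.2%, interval 59.5% to 90.8%), against 73.3% of all regions. RelB was called in 8 (33.3%, 18.0% to 53.3%), with 26.8% over the whole table, and RelA in 2 (8.33%, 2.32% to 25.8%), with 3.31%. p50 and p52 were called together in 14 regions (58.3%, 38.8% to 75.5%; all regions 51.4%). p50 was called without p52 in 5 regions (20.8%, 9.24% to 40.5%; all regions 22.4%) and p52 without p50 in the other 5 (20.8%, 9.24% to 40.5%; all regions 21.9%). Each of these intervals holds the share over all regions. The intervals treat the regions as independent, although 12 are at *CDK6* and 9 at *CCND2*, so they may be too narrow and are no test. All 4 subunits were called in 2 regions, 1 at *CCND2* and 1 at *CDK6*, and 2.35% of all regions had all 4. Every member called for RelB was also called for p52, and every member called for RelA was also called for the other 3 subunits. RelA was called in 492 of the 14865 regions, and in 349 of these the other 3 subunits were called too. The overlap of RelA with the others was thus common and not particular to these genes. The share of RelB calls with a p52 call was not computed over all regions.

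The fold enrichment is the height of the merged ChIP over input at the peak summit. Among members it ranged from 9.12 to 39.1 for p50, with a median of 16.2 against 16.8 over all p50 regions. For p52 it ranged from 9.43 to 49.5, with a median of 25.6 against 17.2. The p52 median was 18.5 in the members within 100 kb of the TSS, so the higher value rested on distal regions. For RelB the range was 5.33 to 27.4 and the median 10.3, against 9.08, and the 2 RelA values were 5.82 and 6.26, against a median of 6.23. The plot of fold enrichment by region shows the values that follow.

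**Figure D1:**
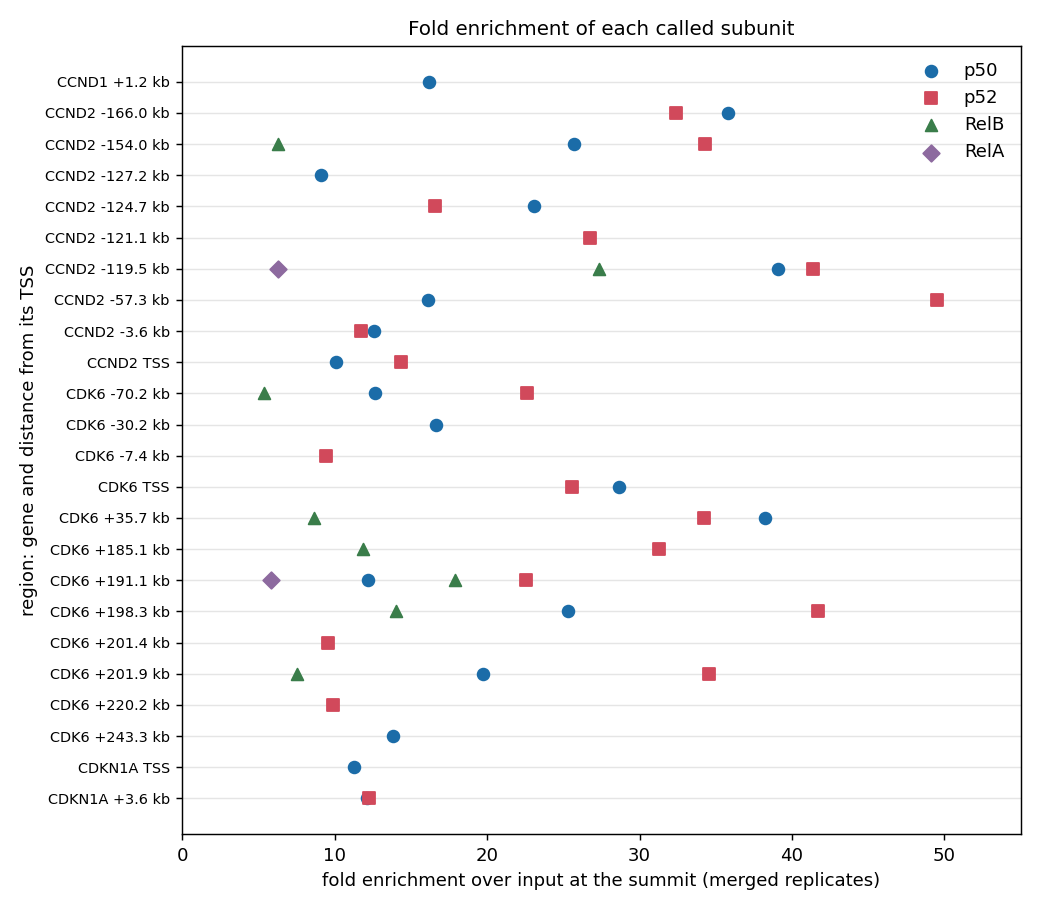
Fold enrichment over input at the summit (x axis, merged replicates, ratio) for each of the 24 regions (y axis, named by gene and distance of the region from the TSS in kb), with 1 symbol for each called subunit. The highest p52 value, 49.5, is at the *CCND2* region 57.3 kb upstream, and the highest RelB value, 27.4, is at the *CCND2* region 119.5 kb upstream. RelA was called only at that region and at the *CDK6* region 191.1 kb downstream of the TSS.

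*CCND2*, the gene of cyclin D2, lies on the plus strand of chromosome 12 with its TSS at position 4253199 of hg18. Its 9 regions comprised 1 over the TSS and 8 upstream, and none lay in the body of the gene away from the TSS. p50 was called in 8 of the 9 regions and p52 also in 8, with both in 7, whereas RelB was called in 2 and RelA in 1. p50 gave 1477 reads and p52 1943 reads over the 9 regions, so that p50 made up 43.2% of the reads of the pair (exact interval 41.5% to 44.9%).

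Of the upstream regions, 6 stood within 47.5 kb of each other, between 119.5 and 166.0 kb from the TSS. This group was formed by position after the values were seen and is described without a test. The outermost region, chr12:4086153-4087185, was called for p50 and p52 and held 252 and 210 reads. Its fold enrichments were 35.8 for p50 and 32.4 for p52, and its p50 value exceeded that of 89.6% of all regions called for p50. The next region inward, chr12:4098417-4099207, had calls for p50, p52 and RelB, based on 133, 198 and 29 reads and fold enrichments of 25.7, 34.3 and 6.31. RelB here was low, above only 24.7% of the regions called for RelB.

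The region 119.5 kb upstream, chr12:4132549-4133653, had the highest density of reads among the members for each subunit, although for p52 its 333 reads per kb were close to the 331 of a *CDK6* region and for RelA its 45.2 reads per kb could not be told from those of the *CDK6* region 191.1 kb into the gene. It held 313 p50 reads, 368 p52 reads, 158 RelB reads (134 to 185) and 50 RelA reads (37.1 to 65.9), and all 4 subunits were called. The fold enrichments of p50 and p52 were 39.1 and 41.4, that of RelB was 27.4 and that of RelA was 6.26. These exceeded 92.2% of p50 calls, 90.2% of p52 calls, 96.7% of RelB calls and 51.0% of RelA calls in the whole table. RelB thus ranked highest within its own calls, and RelA stood in the middle of its calls. The signal value, a score per replicate on a scale the authors do not name, was 1098 and 1408 for RelB, 2058 and 1571 for p50, 927 and 1863 for p52, and 97.3 and 64.2 for RelA.

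The 3 remaining regions of this group lay between these and were narrower, at 526 to 734 bp. The one 124.7 kb upstream was called for p50 and p52, with 95 and 88 reads. At 127.2 kb upstream p50 alone was called, with 73 reads (57.2 to 91.8) against 64 p52 reads (49.3 to 81.7), so that the counts behind the presence of a p50 call and the absence of a p52 call overlapped. At 121.1 kb upstream p52 alone was called, with 136 reads against 50 for p50, and this region had the third highest density of p52 reads of the *CCND2* regions, 259 per kb.

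A single region stood 57.3 kb upstream of *CCND2*, at chr12:4194308-4195922. It held 426 p52 reads but 151 p50 reads, and the p50 share was 26.2% (22.6% to 30.0%). The fold enrichment was 49.5 for p52, above 94.4% of p52 calls, and 16.1 for p50, near the p50 median. The log2 ratio of the p50 to the p52 fold enrichment was -1.62, the lowest of the 14 members called for both. RelB was not called here, with 57 reads in 1615 bp (35.3 per kb).

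The region over the *CCND2* TSS, chr12:4250608-4254773, was 4166 bp wide and reached from 2591 bp upstream to 1574 bp downstream of the TSS. It had calls for p50 (315 reads, fold enrichment 10.1) and p52 (362 reads, fold enrichment 14.4). The signal values were 200 and 168 for p50. For p52 they were 113 and 331, which differed widely. Wide p52 differences also occurred away from a TSS, as at the *CDK6* region 201.9 kb into the gene (466 and 1518). The p50 summit stood 16 bp downstream of the TSS and the p52 summit 2043 bp upstream of it. This separation of 2059 bp was the exception among the 14 members called for both, as the other 13 had their summits within 250 bp of each other and the median distance was 6 bp (11 bp over all regions called for both). The width of the region means that the p50 and p52 reads counted in it need not come from the same site. A further region 3.6 kb upstream had calls for the same pair, at fold enrichments of 12.6 for p50 and 11.7 for p52.

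**Figure D2:**
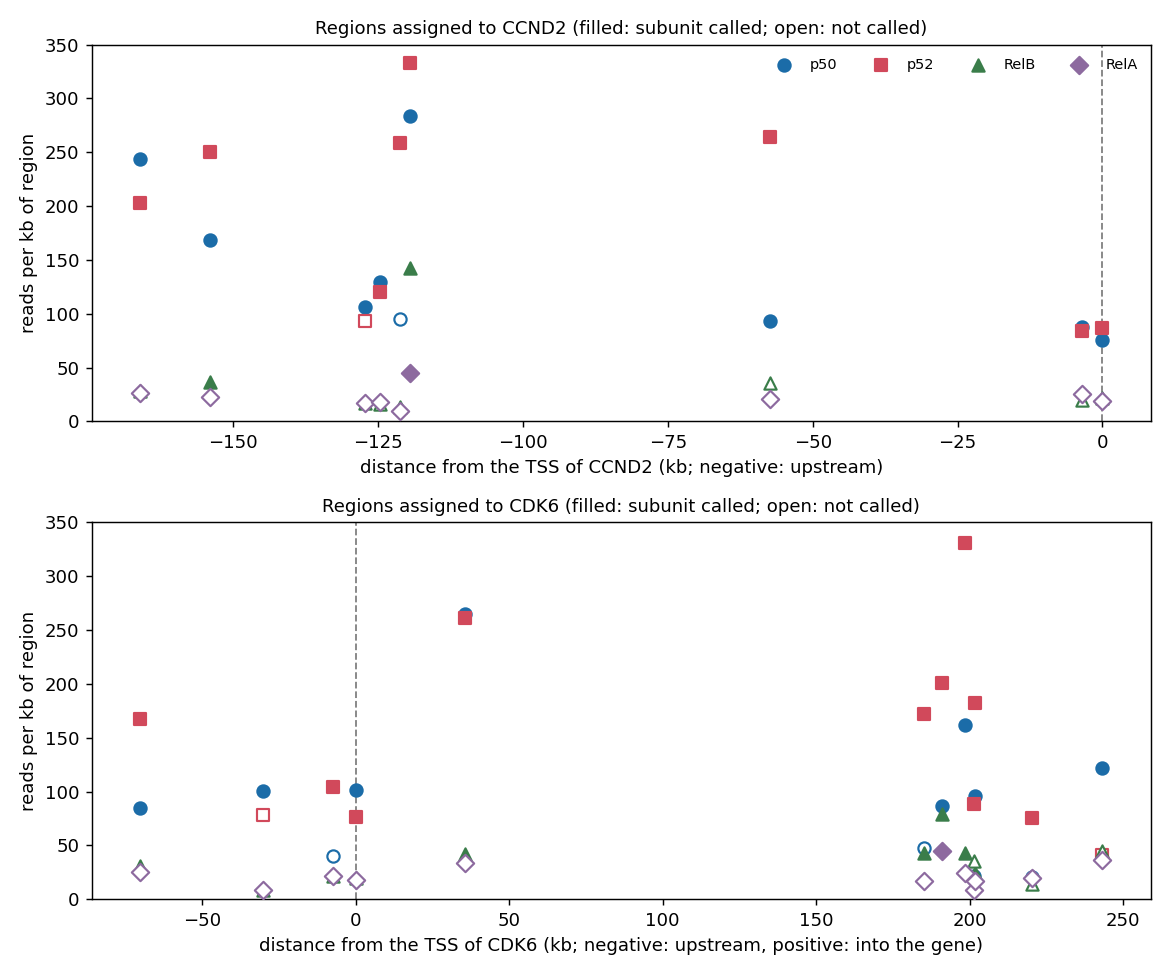
Reads per kb of region (y axis) against the distance of the region from the TSS (x axis, kb) for the 9 regions of *CCND2* (top) and the 12 regions of *CDK6* (bottom), with filled symbols for called and open symbols for uncalled subunits of the merged libraries. p52 stands above p50 in each of the 6 *CDK6* regions between 185.1 and 220.2 kb into the gene, and *CCND2* has its highest RelB density, 143 reads per kb, at 119.5 kb upstream.

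*CDK6*, the kinase partner of the D-type cyclins, lies on the minus strand of chromosome 7 with its TSS at position 92301148 and its 3′ end at 92072175 of hg18. Its 12 regions comprised 1 over the TSS, 3 upstream, 7 in the gene body and 1 downstream of the gene. p52 was called in 10, p50 in 8, RelB in 6 and RelA in 1. Both p50 and p52 were called in 6, p52 without p50 in 4 and p50 without p52 in 2. With 1356 p50 and 1852 p52 reads the p50 share was 42.3% (40.6% to 44.0%), close to that of *CCND2*.

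The 3′ part of the *CDK6* gene body held 6 regions within 36.8 kb, from 7.1 to 43.9 kb before the 3′ end of the gene, and the next *CDK6* region toward the TSS was 148.6 kb away. This group too was formed after the values were seen. The 6 regions were assigned to *CDK6* as the closest gene and not as the closest TSS. Their closest TSS was that of another gene, ENSG00000214343, 44051 to 79197 bp away, whereas the *CDK6* TSS was 185104 to 220250 bp away. All 6 regions were called for p52, 4 for RelB, 3 for p50 and 1 for RelA. The reads of p50 were fewer than those of p52 in each of the 6, and the p50 share ran from 19.2% to 34.6%. Pooled, the 6 regions gave 435 p50 and 1040 p52 reads, a share of 29.5% (27.2% to 31.9%). Their median share was 25.9%, against a median of 44.8% over the 12418 regions away from a TSS. Regions with fewer p50 than p52 reads were common: 53.1% of all regions and 13 of the 24 members (54.2%, 35.1% to 72.1%) had them.

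The region 198.3 kb into the gene, chr7:92101865-92102815, carried the strongest p52 peak of *CDK6*, with a fold enrichment of 41.7 and 315 reads. p50 reached 25.3 with 154 reads and RelB 14.0 with 41 reads. Both of its p52 signal values, 1182 and 1896, were higher than those of each of the other 18 members called for p52. The p50 and p52 summits were 3 bp apart.

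The region 191.1 kb into the gene, chr7:92109015-92110009, was the second member with all 4 subunits. It held 86 p50, 200 p52, 79 RelB and 45 RelA reads, with fold enrichments of 12.2, 22.6, 17.9 and 5.82. RelB exceeded 87.4% of its calls in the whole table here, whereas p50 exceeded 23.9% of its own. The RelB signal values were 559 and 886, and the RelA values 112 and 50.1. Of the 2 members called for RelA, this one was higher than the *CCND2* region in 1 signal value and lower in the other, so that their order was not settled.

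At 185.1 kb, chr7:92115161-92116044, p52 and RelB were called without p50, with fold enrichments of 31.3 and 11.8. This was the only member with that combination, and it held 152 p52, 38 RelB and 42 p50 reads in 884 bp. At 201.9 kb p50, p52 and RelB were called together, with fold enrichments of 19.7, 34.6 and 7.54. The regions at 201.4 and 220.2 kb were called for p52 alone, with weak fold enrichments of 9.53 and 9.89.

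The first of these lay directly beside the region at 201.9 kb and was only 473 bp wide, with 42 p52 and 10 p50 reads. In contrast, the region past the 3′ end of *CDK6*, chr7:92056885-92057892, was called for p50 alone, with 123 p50 reads against 41 for p52. Its p50 share of 75.0% (67.7% to 81.4%) was the highest of all members. It was assigned to *CDK6* as the closest gene, 14283 bp beyond the gene, and not as the closest TSS.

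In the 5′ part of the *CDK6* gene, the region 35.7 kb from the TSS, chr7:92264645-92265422, held 206 p50 and 203 p52 reads, a share of 50.4% (45.4% to 55.3%). It had the highest p50 fold enrichment of *CDK6*, 38.3, together with 34.2 for p52 and 8.67 for RelB. Upstream of the gene, p52 alone was called at 7.4 kb, p50 alone at 30.2 kb, and p50, p52 and RelB at 70.2 kb. The last of these had a p52 fold enrichment of 22.6 and the lowest RelB fold enrichment of the members, 5.33.

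The region over the *CDK6* TSS, chr7:92300234-92304577, was 4344 bp wide and extended from 3429 bp upstream to 914 bp downstream of the TSS. It was called for p50 and p52, with 442 and 332 reads and fold enrichments of 28.7 and 25.6. The signal values differed widely, at 283 and 852 for p50 and 222 and 798 for p52. RelB and RelA had 86 and 77 reads and were not called. The p50 and p52 summits stood 1439 and 1462 bp upstream of the annotated TSS. The p50 share was 57.1% (53.5% to 60.6%).

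Promoter sequences are given for *CDK6* and *CDKN1A*, since both had a region over the TSS and both are in the RefSeq promoter table used here, which is on GRCh38.p14. It lists start sites of *CDK6* at positions 92836573 and 92833959 of chromosome 7, 2614 bp apart. Each window runs from 250 bases before to 50 bases after a start site, 5′ to 3′ on the strand of the gene, and capitals mark matches of GGGNNNNNCC, a loose form of the κB site searched on both strands. The windows were not placed against the hg18 regions, because no conversion between the builds was made.
CDK6, chr7:92836524-92836823, minus strand: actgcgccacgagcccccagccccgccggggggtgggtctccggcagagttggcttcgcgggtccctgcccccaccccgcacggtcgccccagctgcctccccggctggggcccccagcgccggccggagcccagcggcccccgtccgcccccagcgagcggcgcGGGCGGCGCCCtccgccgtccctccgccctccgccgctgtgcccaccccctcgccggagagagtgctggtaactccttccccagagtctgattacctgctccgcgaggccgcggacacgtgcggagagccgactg
CDK6, chr7:92833910-92834209, minus strand: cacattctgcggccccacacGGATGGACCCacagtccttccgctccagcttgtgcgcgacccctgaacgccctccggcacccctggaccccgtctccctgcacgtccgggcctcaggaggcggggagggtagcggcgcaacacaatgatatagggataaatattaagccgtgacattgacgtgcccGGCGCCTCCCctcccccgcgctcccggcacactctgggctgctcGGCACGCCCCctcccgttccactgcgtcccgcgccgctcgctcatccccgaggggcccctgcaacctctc

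The first *CDK6* window had 2 matches and the other 3. Of 35116 promoter windows of this length, 20602 (58.7%) held at least 1 match. The stricter κB consensus, in which the inner positions are restricted and whose matches are all matches of the loose form too, had none in either *CDK6* window and at least 1 in 3956 of the windows (11.3%). A match describes letters only and was not tied to a summit.

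*CDKN1A*, the gene of p21, lies on the plus strand of chromosome 6 with its TSS at position 36754465 of hg18. The region over its TSS, chr6:36754078-36755182, was called for p50 alone, with 94 reads (76.0 to 115) against 32 p52 reads (21.9 to 45.2). The fold enrichment of p50 was 11.2, above 17.1% of p50 calls, and its summit was 51 bp upstream of the TSS. RelA had 33 reads and RelB 27, both near the p52 count. The signal values of p50 were 183 and 191 and differed little from each other.

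The p50 share at the *CDKN1A* TSS was 74.6% (66.1% to 81.9%), above 94.1% of all regions and above 87.2% of the 2447 regions over a TSS. The RefSeq window of the *CDKN1A* start site had 5 matches of GGGNNNNNCC at 4 positions and none of the stricter consensus.
CDKN1A, chr6:36678464-36678763, plus strand: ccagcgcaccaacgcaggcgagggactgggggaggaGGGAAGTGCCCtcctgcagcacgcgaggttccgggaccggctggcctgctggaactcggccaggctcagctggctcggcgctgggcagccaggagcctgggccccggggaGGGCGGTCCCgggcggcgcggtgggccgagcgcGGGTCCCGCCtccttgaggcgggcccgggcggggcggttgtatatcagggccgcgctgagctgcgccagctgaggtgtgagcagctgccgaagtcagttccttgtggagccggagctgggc

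A second region of *CDKN1A* began 3.6 kb downstream of the TSS, at chr6:36758084-36759036 of hg18. It was called for p50 and p52, with 111 and 99 reads and fold enrichments of 12.1 and 12.2. The summits stood 4311 and 4314 bp from the TSS. Here the p50 share was 52.9% (45.9% to 59.8%), and this interval did not overlap that of the TSS region.

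*CCND1*, the gene of cyclin D1, had a single region, chr11:69166273-69167145 of hg18, which lay in the gene 1219 bp from the TSS. It was called for p50 alone, with 58 reads (44.0 to 75.0) against 28 for p52 (18.6 to 40.5), 10 for RelB and 7 for RelA. The fold enrichment of 16.2 was the median of the members called for p50. The p50 signal values were 146 and 444, a wide difference between replicates, like that at the *CDK6* TSS region. No region of the table was assigned to *CCND3*, the gene of cyclin D3, so that no binding to it was called under the authors' thresholds and assignment. A region near *CCND3* that was closer to another gene would be listed under that gene.

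**Figure D3:**
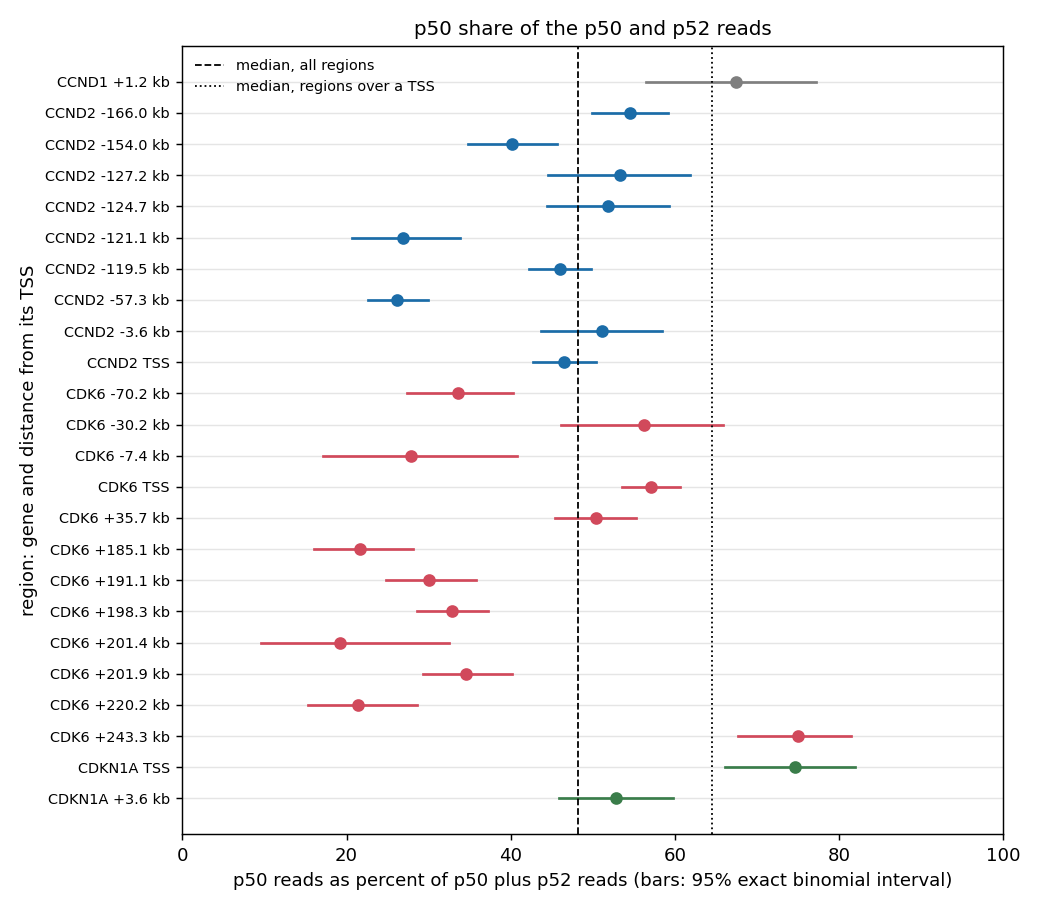
p50 reads as a percent of p50 plus p52 reads (x axis) in each of the 24 regions (y axis, gene and distance from the TSS in kb), with bars for the exact 95% binomial interval, coloured by gene, and lines at the medians of all regions (48.2%, dashed) and of regions over a TSS (64.6%, dotted). The 6 *CDK6* regions at 185.1 to 220.2 kb have shares from 19.2% to 34.6%, and the *CDKN1A* TSS region has 74.6%.

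The plot of the p50 share gives the balance of the 2 subunits in every region. Over a TSS, the 3 members had 851 p50 and 726 p52 reads, a share of 53.96% (51.5% to 56.4%). Away from a TSS, the 21 other members had 2245 p50 and 3228 p52 reads, a share of 41.0% (39.7% to 42.3%). These are pooled shares. In median shares per region the same order held in the whole table, with 64.6% over a TSS and 44.8% elsewhere. The members had medians of 57.1% over a TSS and 40.2% away from it. The 3 TSS regions differed among themselves: *CDKN1A* had 74.6%, *CDK6* 57.1% and *CCND2* 46.5% (42.7% to 50.4%), and the 3 intervals did not overlap. The *CCND2* value was above only 6.91% of the regions over a TSS and the *CDK6* value above 25.3%. However, the *CCND2* and *CDK6* regions were 4166 and 4344 bp wide, against a median of 1358 bp for regions over a TSS. Their p52 summits stood 2043 and 1462 bp upstream, so these shares need not describe binding at the start site.

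By gene, the share was 67.4% at *CCND1* (56.5% to 77.2%) and 61.0% at *CDKN1A* (55.6% to 66.3%), the genes with 1 and 2 regions. It was 43.2% at *CCND2* and 42.3% at *CDK6*, whose intervals overlapped each other and not those of the other pair. The *CCND1* and *CDKN1A* regions all began within 3619 bp of the TSS, whereas most *CCND2* and *CDK6* regions lay farther away. In the whole table the median share was 64.6% over a TSS and 44.8% elsewhere, and the part of distance in the gene contrast was not tested. The shares by gene weight p50 and p52 by the reads of their merged libraries, and other library sizes would shift all of them together. Within the regions called for both subunits, the median log2 ratio of the p50 to the p52 fold enrichment was -0.25, with p50 higher in 5 of 14. It was -0.72 without the regions of *CCND2* and -0.05 without those of *CDK6*. Over all 7643 such regions the median was -0.12, with p50 higher in 43.2%. With the height of the peak in place of its fold enrichment the median of the members was 0.050, so that the sign of the median was not settled.

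RelB was not called in any of the 3 TSS regions, and 25.9% of all regions over a TSS had a RelB call. p52 was called in 2 of the 3 (53.1% of all regions over a TSS). Of the members, 3 (12.5%, 4.34% to 31.0%) lay within 1 kb of a TSS, and the interval holds the share of all regions, 20.1%. This distance was taken from the nearest edge of a region and not from its summits. Within 5 kb the share of members was 25.0%. All 8 RelB calls thus fell on regions away from a TSS, 6 of them at *CDK6* and 2 at *CCND2*. In these 8 regions the median fold enrichment of p52 was 34.2, and p50, which was called in 7 of them, had a median of 25.3 in those 7. In the 7 members called for p50 and p52 without RelB the medians were 16.1 and 16.6. The RelB-called members had a p50 share of 38.5% and the other 7 a share of 47.6%. Those 7 included the wide regions over the TSS of *CCND2* and *CDK6*, and the rest of them lay away from a TSS, as did all RelB-called members. The share of 38.5% includes the *CDK6* region 185.1 kb into the gene, which was not called for p50. The contrast was not computed over all regions, and its cause was not tested.

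The signal values were the sole measure given per replicate, and the table does not tell which belongs to which replicate or, for p52, to which antibody. A region was taken as higher than another where both of its signal values were higher. For p50, 127 of the 171 pairs of members (74.3%) were ordered in this way, for p52 141 of 171 (82.5%) and for RelB 24 of 28 (85.7%). The *CCND2* regions 166.0 and 119.5 kb upstream each ranked above 17 of the other 18 p50 members and could not be ordered against each other. For RelB, the *CCND2* region at 119.5 kb was above the other 7, and the *CDK6* region at 191.1 kb was above 6. Over all called regions the spread between the signal values of a region on the log2 scale (SD) was 0.53 for p50 and 0.51 for p52, and it was wider at 0.88 for RelB and 0.90 for RelA.

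**Figure D4:**
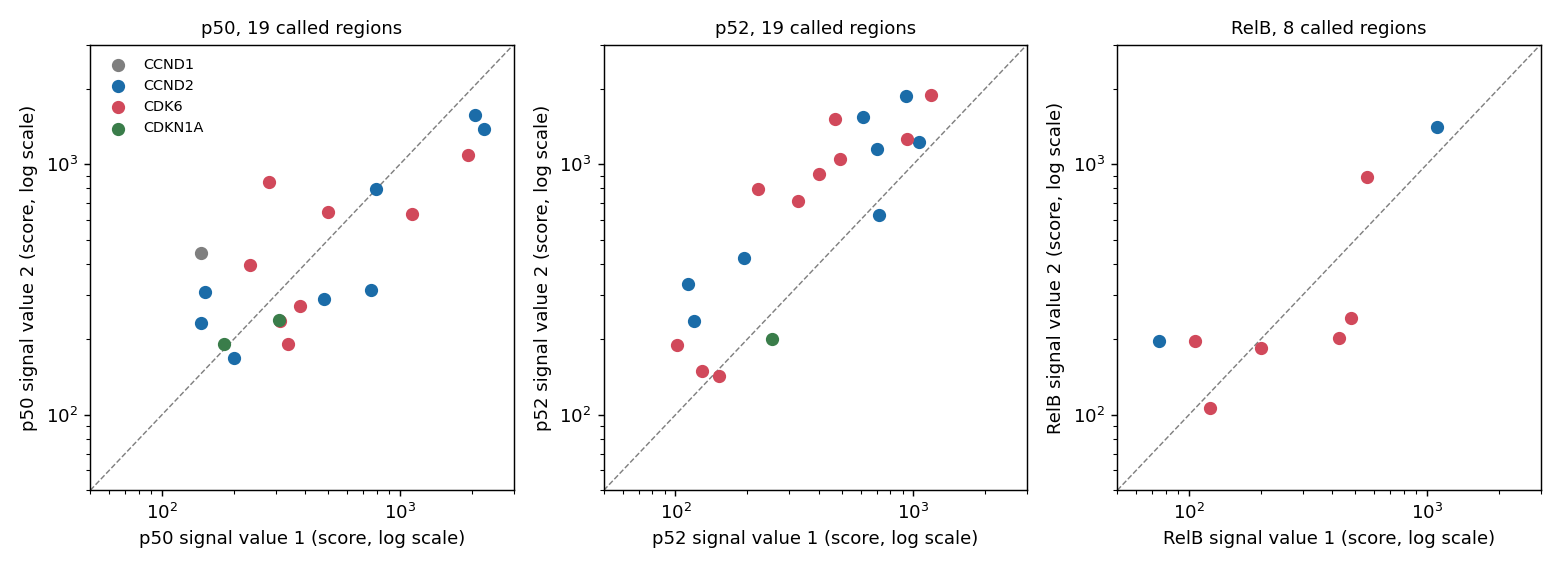
Signal value 1 (x axis, log scale) against signal value 2 (y axis, log scale) of each member called for p50 (left, 19), p52 (middle, 19) and RelB (right, 8), coloured by gene, with a dashed line of equal values. Regions high in one value are mostly high in the other, and the *CCND2* region at 119.5 kb upstream (RelB 1098 and 1408) is the highest RelB point.

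Of 20 other genes of the G1 machinery that were listed for this purpose, 5 could be matched to an Ensembl identifier, through the study's list of regulated genes by function, and the others were not analysed. All 5 had a region, which is no finding, since that list was chosen on binding or regulation in these cells. *CDKN2B*, which encodes the CDK4 and CDK6 inhibitor p15, had 5 regions, of which 5 were called for p52, 3 for p50 and 1 for RelB. *CDKN2C*, which encodes the related inhibitor p18, had 2 regions. *RBL1*, the gene of the pocket protein p107, had 1 region, over its TSS and called for p50, p52 and RelB. *E2F2* had 1 region and *TFDP2*, the gene of an E2F dimerization partner, had 5. Of the 14 regions, 12 were called for p52 (73.3% of all regions), 10 for p50 (73.8%), 3 for RelB (26.8%) and none for RelA (3.31%). These calls are subject to the same selection of genes, so the shares over all regions are no fair reference for them.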

How the data were processed

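ChIP-seq of p50, p52, RelA and RelB (2 replicates each) and 6 input libraries of L1236 cells (14 samples, grouped by their labels) was analysed from the authors' table of 14865 union regions on hg18. The authors mapped reads with Bowtie, kept unique reads, removed PCR duplicates, reduced libraries at random to 10000000 reads and called peaks with MACS; CASAVA and SAMtools are also named in the submitters' processing notes, and versions are not given in the sources used here. The deposited read counts are whole numbers per region from merged replicates, and whether they precede the reduction is not stated. The fold enrichment, as deposited, is a ratio of ChIP to input at the summit, and the deposited pileup is the coverage signal there. The deposited signal value is a score per replicate that entered the analysis of the irreproducible discovery rate (IDR), on an unnamed scale. The authors set a threshold of 0.05 for the IDR, deposited as a fraction between replicates, and for the false discovery rate, deposited as a q-value; every deposited IDR is below 0.01. Distances to the closest gene and TSS (Ensembl 54, within 1 Mb) are the authors'.

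Members were counted with Wilson intervals, reads were given exact Poisson intervals and the p50 share of p50 plus p52 reads exact binomial (Clopper-Pearson) intervals, all at 95% and for counting error only. No test was made: calls, fold enrichments and reads are 1 merged value per subunit, and the signal values, 2 per called region and not labelled by replicate, served only to order regions. TSS positions were solved from the deposited distances; for CDKN1A the strand came from RefSeq, and for CCND1, with no strand in the sources used here, the deposited distance alone was used. Every region of the member genes is described, with full values for regions over a TSS, for the highest fold enrichment of each subunit at each gene and for regions called for RelA. The members and lists were chosen with earlier results of these data known. The stricter motif is the κB consensus of 10 letters. RefSeq promoters matched CDKN1A and CDK6 (GRCh38.p14); those of CCND1 and CCND2 were not matched, and CCND3 has no region. Sequences of the hg18 regions and expression were not used here. Alternatives were stricter IDR, FDR and fold enrichment thresholds, removal of regions with high background, other assignments to genes, and pileup in place of fold enrichment. Intervals, TSS positions and the motif search were tested on simulated data. Calculations were run in Python 3.11.15 with scipy 1.17.1, pandas 2.3.3 and numpy 2.4.6, and plots were drawn with matplotlib 3.10.9.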

Additional observations from a re-analysis of the deposited data

How the results depend on the processing

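Of 102 recomputed values of 16 results, 84 stayed within the limits set for them, 17 moved and 1 changed sign. Some of the 84 repeat the main value, since every member was assigned by its closest gene and every deposited IDR is below 0.01. The fold enrichment threshold of 5 also lay below the lowest called value of the members, 5.33. The count of 84 is thus no measure of stability. The sign changed for the median log2 ratio of p50 to p52, which was 0.050 with pileup in place of fold enrichment; the cause was not tested. With regions within 100 kb of the TSS only, p50 was called in 10 members, p52 in 8, RelB in 2 and RelA in 0, and CCND2 and CDK6 kept 3 and 5 regions, since the distal regions left the count. With the closest TSS only, CDK6 had 5 regions, and RelB was called in 4 members and RelA in 1. With p50 and p52 together required, CDK6 had 6 regions, CDKN1A 1 and CCND1 0. Counting any region within 100 kb of the TSS, whatever its assignment, gave 3 for CCND2, 5 for CDK6 and 5 for CDKN1A; this setting, an IDR below 0.001, and leaving out CDK6 or CCND2 were chosen after seeing the data. Without CCND2 the median log2 ratio was -0.72 and without CDK6 -0.05. An IDR below 0.001 left RelB in 4 members and RelA in 1, and an IDR below 0.01 changed no call, since all deposited values are below it. The median p52 fold enrichment of the members was 18.5 within 100 kb of the TSS and 31.3 with an IDR below 0.001. It stayed at 25.6 in the other settings. No paired analysis was possible because the columns carry no replicate numbers and the results come from no test. Leaving out a replicate could not be done, as calls and fold enrichments were deposited for merged replicates only. The values of RelB and RelA rest on the fewest reads, 5 to 158 and 4 to 80 per member region.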
